A study of Mus musculus with 8 samples.

Results

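ISG15 is a small ubiquitin-like protein that cells attach to other proteins, and the enzymes that attach and remove it form the subject of these results. The members were taken by name from the deposited expression table as Isg15 itself, its activating enzyme (E1) Uba7, its conjugating enzyme (E2) Ube2l6, its ligase (E3) Herc6 and its protease Usp18. All 5 were found, among 18473 genes in the table, and all 5 were among the 9812 genes tested. The 8 mouse RNA libraries form the groups EXO (4) and LPS (4), so named by their titles. According to the design text macrophages received ADSC-Exos, and the series title names acute lung injury, alveolar macrophage polarization, Irf7 and Nlrp3. The labels do not spell out the abbreviations, although LPS usually stands for lipopolysaccharide and ADSC-Exos for exosomes of adipose-derived stem cells. They give neither dose nor duration, do not say whether EXO cells also received LPS, and name the same lung source and MLE-12 epithelial line for both groups. They do not say whether each replicate had its own culture, and p-values therefore measure only the spread between these libraries, which may be technical.

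Interferons switch on the whole ISG15 pathway, in which the modifier is charged by its E1, handed to its E2 and joined by an E3 to newly made host and viral proteins. In mice Herc6 is the main ISG15 ligase, a role filled by HERC5 in humans. Usp18 cuts ISG15 off its targets and, apart from that, binds the interferon receptor chain Ifnar2 and dampens the receptor's signal. Macrophages are a well-known site of this response, and free ISG15 can also be secreted and act as a cytokine.

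Markers were set beside the labels before the members. The libraries carried macrophage transcripts, 17 of 18 macrophage markers having a mean of at least 1 FPKM (fragments corrected for gene length and sequencing depth), led by Lyz2, Fcer1g and Tyrobp. They summed to 6345 to 7899 FPKM per EXO library, against 11338 to 23384 FPKM per LPS library, and 14 of the 17 tested were lower in EXO with 3 not called. Of 22 lung epithelial markers 7 were analysed, at a summed 45.1 to 55.7 FPKM in EXO and 67.7 to 104 FPKM in LPS, with Napsa as the largest part. The other 15, among them Epcam, Cdh1, Krt8, Nkx2-1 and Sftpc, were not found among the deposited genes. Of the 4 epithelial markers tested, 3 fell and 1 rose in EXO. Napsa, Abca3 and Etv5 had the highest levels of that list, while Ocln was listed at 0 in every EXO library and Elf3 in every LPS library. Of 18 markers of other leukocytes, endothelium and stroma 9 were analysed, at a summed 2.38 to 5.89 FPKM in EXO and 1.91 to 5.47 FPKM in LPS, S100a8 being the highest and Col1a1 being listed at 0 throughout. The macrophage markers thus moved in the same direction as the members, and their part in the results below was not tested. In bulk RNA a lower share of macrophages and less of a transcript per cell cannot be told apart.

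All 5 members were lower in EXO than in LPS, by between 5.01 and 21.2 times in mean FPKM. In each of them every EXO library lay below every LPS library. Each passed the test, limma on log2(FPKM + 1) with Benjamini-Hochberg adjustment over all 9812 genes at a threshold of 0.05. By that test 24.7% of all genes were called lower in EXO and 33.7% higher, and in 22.1% of all genes every EXO library lay below every LPS library. The median log2 fold change (EXO minus LPS) was -3.19 over the members and 0.085 over all genes tested. The plot of levels by library shows the gap between the groups in each member.

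**Figure D1:**
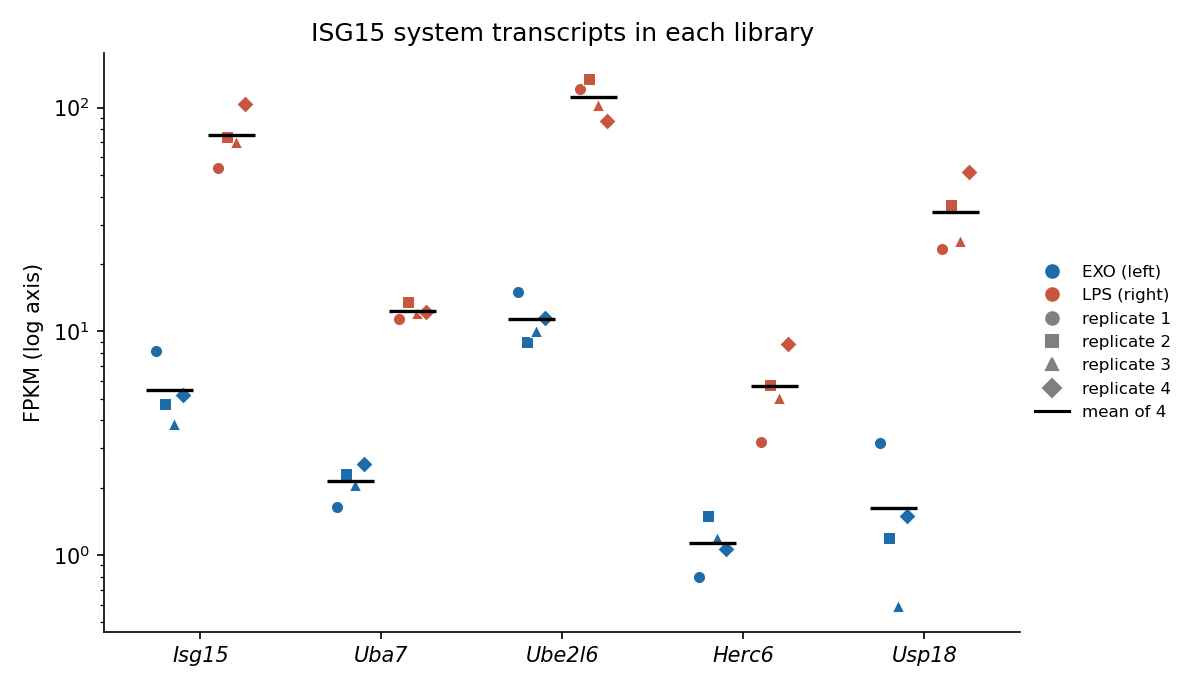
FPKM on a log axis for the 5 members in each of the 8 libraries, EXO in blue on the left of each pair and LPS in red on the right, with the replicate given by the symbol and the mean of 4 libraries by the bar. Every EXO value lies below every LPS value of the same gene, and the gap is narrowest in Herc6, whose lowest LPS library stood 2.14 times above its highest EXO library.

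Isg15, the modifier, had 8.15, 4.75, 3.85 and 5.17 FPKM in EXO replicates 1 to 4, against 54.0, 74.0, 70.5 and 104 FPKM in LPS replicates 1 to 4. EXO replicate 1 was the highest of its group and LPS replicate 4 the highest of all. The means were 5.48 ± 1.86 FPKM in EXO and 75.5 ± 20.6 FPKM in LPS (SD, n = 4 each), so that EXO stood at 7.26% of LPS. This is -3.56 on the log2 scale, with an SE of 0.21 and a 95% confidence interval of -4.02 to -3.10 (limma adjusted p = 1.20e-07). Among the genes tested, the level of Isg15 lay at the 35.9th percentile in EXO and at the 90.6th percentile in LPS.

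The region before the start of Isg15 is shown because it carries the letters that interferon-responsive promoters are known for, and the one before Uba7 for comparison with another member. Both are the 250 bases upstream of the RefSeq start in build GRCm38.p6, an older build than the GRCm39 named in the submitters' processing notes, written 5′ to 3′ on the strand of the gene. Capitals mark matches on either strand to GAAA, any 2 bases and GAAA again, the core of the interferon-stimulated response element, and to AANNGAAA, the core bound by interferon regulatory factors, which lies inside it.
Isg15 (chr4:156200819-156201068, minus strand): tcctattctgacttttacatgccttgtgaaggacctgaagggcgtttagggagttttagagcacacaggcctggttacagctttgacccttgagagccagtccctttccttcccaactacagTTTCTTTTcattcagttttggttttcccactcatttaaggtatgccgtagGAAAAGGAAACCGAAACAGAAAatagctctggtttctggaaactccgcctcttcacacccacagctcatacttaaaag
Uba7 (chr9:107975317-107975566, plus strand): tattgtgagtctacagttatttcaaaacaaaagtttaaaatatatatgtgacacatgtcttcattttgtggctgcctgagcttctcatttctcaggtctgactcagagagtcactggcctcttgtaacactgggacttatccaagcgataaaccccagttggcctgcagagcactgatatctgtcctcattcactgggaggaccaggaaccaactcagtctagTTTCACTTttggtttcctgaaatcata

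In Isg15, 3 overlapping matches to the longer core began 78, 72 and 66 bases before the start. The shorter core matched 4 times, 3 of them inside that run. Uba7 held 1 match to the shorter core, 27 bases before its start, and none to the longer. Of the members, 4 had an entry, and the windows of Ube2l6 and Herc6 held neither set of letters in these 300 bases, which run from 250 before to 50 after the start. Among 27025 RefSeq promoter windows of the same length, 3.49% held the longer core and 24.2% the shorter, and among the 7989 windows of tested genes the shares were 3.25% and 17.9%. These matches describe letters only and were not measured as binding.

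Uba7, the E1 that activates ISG15, had 1.64, 2.30, 2.06 and 2.56 FPKM in EXO replicates 1 to 4, against 11.3, 13.5, 12.1 and 12.2 FPKM in LPS replicates 1 to 4. It was the steadiest member in LPS, where the coefficient of variation was 7.33%, against 18.2% in EXO. The means were 2.14 ± 0.390 FPKM in EXO and 12.3 ± 0.899 FPKM in LPS (SD, n = 4 each), a difference of -2.09 on the log2 scale, with an SE of 0.12 and a 95% confidence interval of -2.34 to -1.83 (limma adjusted p = 1.81e-08).

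Ube2l6, the E2 that carries ISG15 to the ligase, was the most abundant member by mean in both groups. It had 14.9, 8.99, 10.05 and 11.5 FPKM in EXO replicates 1 to 4, against 121, 134, 103 and 87.3 FPKM in LPS replicates 1 to 4. EXO replicate 1 was again the highest of its group, but LPS replicate 4, the library with the most Isg15, had the least Ube2l6 of the LPS libraries. The means were 11.4 ± 2.59 FPKM in EXO and 111 ± 20.4 FPKM in LPS (SD, n = 4 each), so that EXO differed by -3.19 on the log2 scale, with an SE of 0.16 and a 95% confidence interval of -3.53 to -2.84 (limma adjusted p = 9.09e-09).

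Herc6, the mouse ISG15 ligase, was the least abundant member by mean in both groups. It had 0.795, 1.49, 1.19 and 1.07 FPKM in EXO replicates 1 to 4, against 3.19, 5.77, 5.05 and 8.75 FPKM in LPS replicates 1 to 4. EXO replicate 1, which led its group in Isg15 and Ube2l6, was the lowest for Herc6. The means were 1.13 ± 0.287 FPKM in EXO and 5.69 ± 2.31 FPKM in LPS (SD, n = 4 each), or 19.95% of the LPS level. Its log2 fold change of -1.59 was the smallest in size of the 5, with an SE of 0.21 and a 95% confidence interval of -2.05 to -1.14 (limma adjusted p = 4.76e-05), and on the log2(FPKM + 1) scale a gene at these levels shows less than its change in FPKM.

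Usp18, the protease that removes ISG15, had 3.18, 1.19, 0.594 and 1.49 FPKM in EXO replicates 1 to 4, against 23.3, 36.8, 25.4 and 51.7 FPKM in LPS replicates 1 to 4. Its EXO libraries spread the most of any member, 5.36 times between the lowest and the highest, and the lowest of these values rests on 39 fragments. The means were 1.61 ± 1.11 FPKM in EXO and 34.3 ± 13.1 FPKM in LPS (SD, n = 4 each), which puts EXO at 4.71% of LPS. The difference was -3.77 on the log2 scale, with an SE of 0.33 and a 95% confidence interval of -4.52 to -3.03 (limma adjusted p = 1.42e-05). Its level lay at the 8.65th percentile of tested genes in EXO and at the 80.7th in LPS.

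Ranked from the lowest fold change upward among the 9812 genes, Usp18 was number 11, Isg15 number 18, Ube2l6 number 28, Uba7 number 107 and Herc6 number 236. Depth varied little, the table holding 37061862 fragments in the shallowest library and 40641290 in the deepest. Isg15 rested on 108 to 232 fragments per EXO library, against 1660 to 3110 per LPS library, over a length of 756 bases as implied by the steps of the FPKM values. Herc6, with a length of 5279 bases, rested on 158 to 308 fragments per EXO library, against 684 to 1834 per LPS library.

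**Figure D2:**
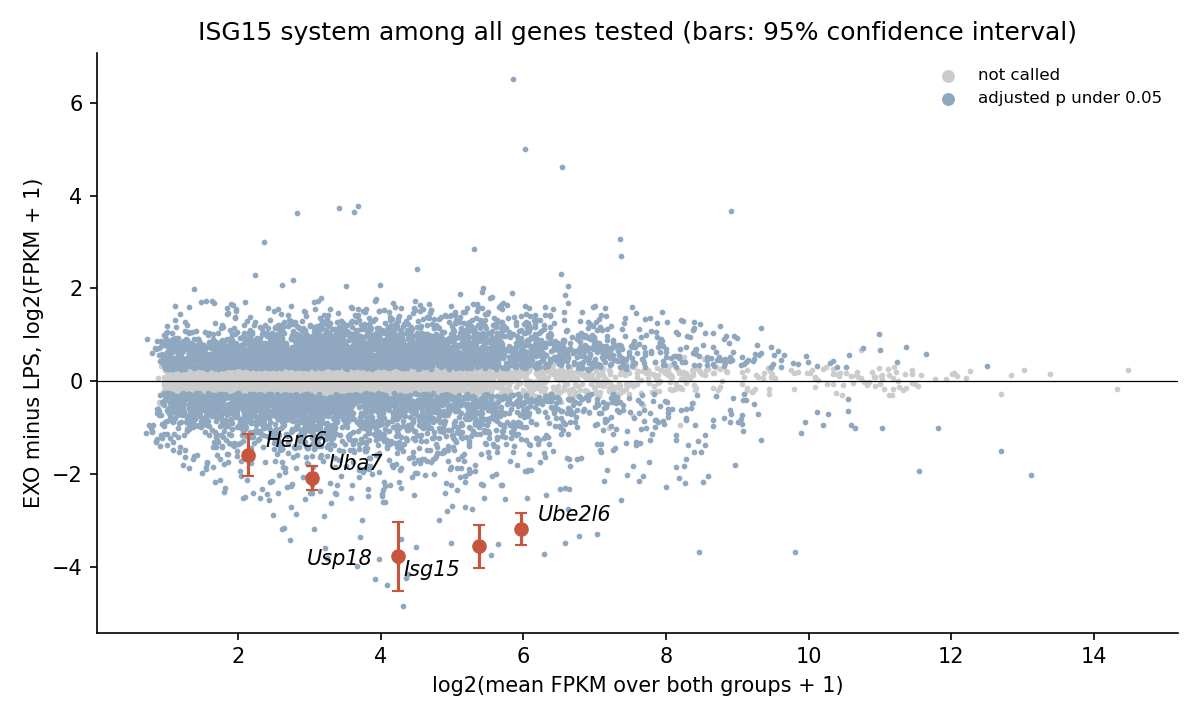
Difference of mean log2(FPKM + 1), EXO minus LPS, against log2(mean FPKM over both groups + 1) for the 9812 genes tested, with called genes in blue, genes not called in grey and the 5 members in red with 95% confidence intervals. The members lie in the lower part of the cloud, from -1.59 for Herc6 to -3.77 for Usp18.

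The order of the levels in FPKM, which corrects for gene length and depth only, differed between the groups in the place of Usp18. In EXO it ran Ube2l6, Isg15, Uba7, Usp18 and Herc6, and the ranges of Uba7 and Usp18, and of Usp18 and Herc6, overlapped. In LPS it ran Ube2l6, Isg15, Usp18, Uba7 and Herc6, where only Ube2l6 and Isg15 overlapped, Isg15 being above Ube2l6 in LPS replicate 4 alone. The 5 members summed to 21.7 ± 4.95 FPKM in EXO and 239 ± 28.5 FPKM in LPS (SD, n = 4 each). Uba7 made up 10.3% ± 3.10 of that sum in EXO and 5.16% ± 0.416 in LPS, and Usp18 6.91% ± 3.18 in EXO and 14.1% ± 3.93 in LPS.

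Whether the members fell by unequal amounts was tested for all 10 pairs, as the within-library difference of log2(FPKM + 1), by a two-sided exact permutation test over 4 against 4 libraries. The smallest p that this design allows is 0.0286. On that scale 6 of the 10 pairs reached it, with a Benjamini-Hochberg adjusted p of 0.0476 over the 10 pairs by the exact permutation test. These 6 pairs set Uba7 or Herc6, which fell less, against Isg15, Ube2l6 or Usp18, which fell more. With a pseudocount of 0.1 in place of 1, or as plain FPKM ratios, no pair passed (smallest adjusted p of 0.0952 by the same exact permutation test in both), so the call of unequal change depends on the pseudocount. It was also lost when any single library was left out, a design too small to reach the threshold over 10 pairs.

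The pairs that separated the groups without overlap on the plain ratio too were Isg15 to Herc6, Uba7 to Usp18, and Herc6 to Usp18. There was 5.38 ± 3.34 times as much Isg15 as Herc6 in EXO and 13.9 ± 2.21 times as much in LPS (SD, n = 4 each). Herc6 stood at 0.250, 1.24, 2.004 and 0.715 times the level of Usp18 in EXO replicates 1 to 4, against 0.137, 0.157, 0.199 and 0.169 times in LPS replicates 1 to 4. Ligase transcripts exceeded those of the protease in EXO replicates 2 and 3 and lay below them in the other 6 libraries. Isg15 and Ube2l6 had a difference in log2 fold change of -0.38 (two-sided exact permutation p = 0.343, adjusted p = 0.343 over the 10 pairs), and Isg15 and Usp18 differed by 0.21 (exact permutation p = 0.200, adjusted p = 0.250). The Isg15 and Usp18 difference was 0.70 with a pseudocount of 0.1 and 0.79 with none (exact permutation p = 0.0571, adjusted p = 0.0952 in both), so its small size depends on the pseudocount of 1. A p above the threshold in 4 against 4 libraries does not show that these pairs fell equally.

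Within a group the members did not vary as a unit. In EXO replicate 1, Usp18, Isg15 and Ube2l6 stood above their group means, by 0.77, 0.54 and 0.39 on the log2(FPKM + 1) scale, while Uba7 and Herc6 stood at -0.24 each. In LPS replicate 4, Usp18, Herc6 and Isg15 stood above by 0.65, 0.61 and 0.49, while Ube2l6 stood at -0.33 and Uba7 at -0.0083. LPS replicate 1 showed the reverse, with Herc6 at -0.61, Usp18 at -0.47 and Isg15 at -0.44, and Ube2l6 at 0.14. In both groups Isg15 and Usp18 were highest in the same library, which was also the highest for Ube2l6 in EXO and the lowest for it in LPS. With 4 libraries a group, no correlation is given. LPS replicates 1 and 4 differed in macrophage markers too, Lyz2, Fcer1g and Tyrobp each being highest in replicate 1 and lowest in replicate 4. Lyz2 had 14935 FPKM in LPS replicate 1 and 5859 FPKM in LPS replicate 4. Whether these deviations are particular to the members was not tested.

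**Figure D3:**
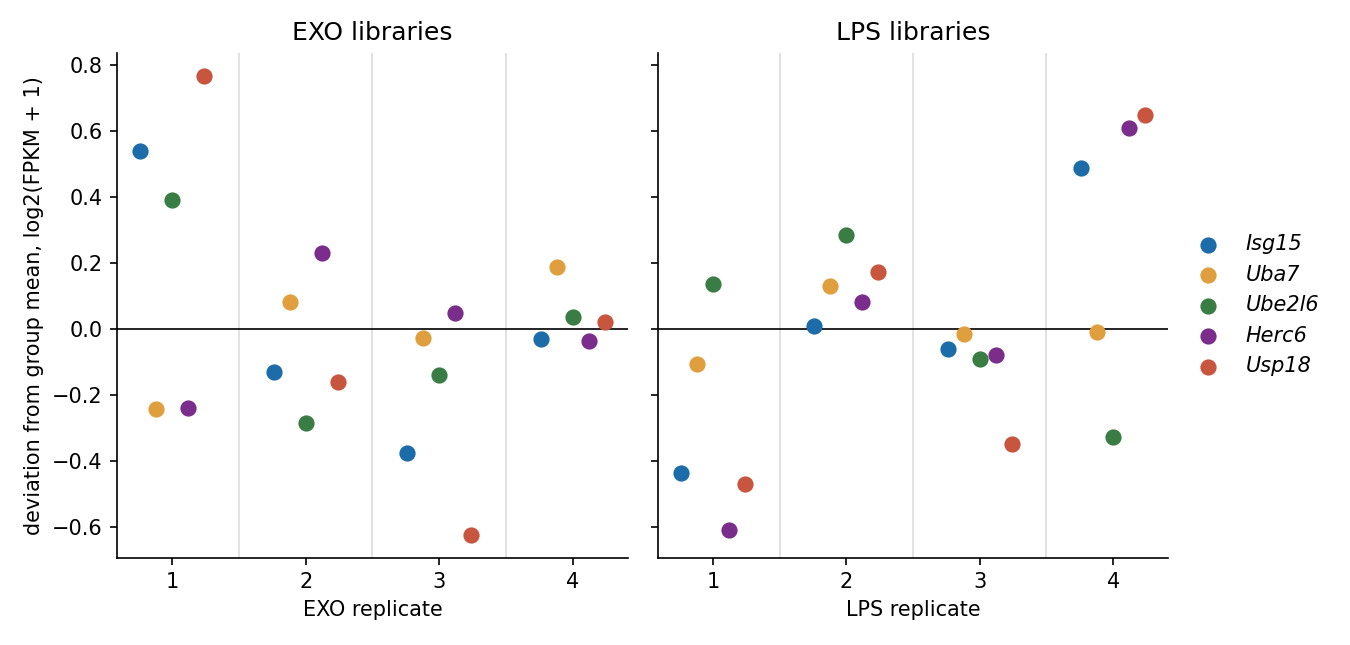
Deviation of each member from the mean of its own group, on the log2(FPKM + 1) scale, by replicate, for EXO libraries on the left and LPS libraries on the right. EXO replicate 1 splits into 3 members above and 2 below the mean, and in LPS replicate 4 Ube2l6 lies at -0.33 while Usp18, Herc6 and Isg15 lie between 0.49 and 0.65.

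The genes with the profile most like each member were found by the root mean square difference of log2(FPKM + 1), centred on each gene's own mean, over the 8 libraries. The nearest gene to Isg15 was Usp18 and the nearest to Usp18 was Isg15, at 0.21. Distances were computed with a pseudocount of 1 only, which compresses low levels such as those of Usp18 in EXO. The fold changes of Isg15 and Usp18 differed by 0.70 with a pseudocount of 0.1 and by 0.79 with none. Their nearness may therefore depend on the pseudocount. After Usp18, Isg15 was nearest to Ifi204, a member of the p200 family of similar genes, at 0.23, and to Cmpk2, a nucleotide kinase, at 0.25. Usp18 was followed by Rtp4 at 0.29 and Cmpk2 at 0.32. Ube2l6 was nearest to Zbp1, which senses nucleic acids in the Z form, at 0.20, H2-T24 at 0.25 and Ifi203 at 0.30, with Isg15 next among the members at 0.43. Uba7 was nearest to Lgals3bp, a secreted glycoprotein, at 0.13, Cyria at 0.14 and Stat2, a subunit of the interferon-activated factor ISGF3, at 0.15. Herc6 was nearest to Igtp, an interferon-inducible GTPase, at 0.12, Ampd3, an AMP deaminase, at 0.15 and Sfn at 0.16. No other member was among the 3 nearest genes of Uba7, Ube2l6 or Herc6. Of these neighbours, Cmpk2, Zbp1, H2-T24 and Sfn stayed below 1 FPKM in every EXO library and passed the filter through LPS alone. Their nearness to a member may likewise depend on the pseudocount.

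Counterparts of the members in ubiquitin conjugation moved less, or in the opposite direction. These 5 pairs of genes were chosen after their values were seen. Ube2l3, the ubiquitin E2 of the same family as Ube2l6, averaged 130.1 ± 9.72 FPKM in EXO and 129.9 ± 7.22 FPKM in LPS (log2 fold change 0.0013, 95% confidence interval -0.22 to 0.22, limma adjusted p = 0.993). Ube2l6 thus stood at 8.66% ± 1.32 of the level of Ube2l3 in EXO and at 85.6% ± 14.2 in LPS (SD, n = 4 each). Uba1, the main ubiquitin E1, averaged 65.9 ± 7.17 FPKM in EXO and 49.9 ± 6.43 FPKM in LPS, higher in EXO (log2 fold change 0.40, limma adjusted p = 0.0129), and Uba7 stood at 3.24% ± 0.481 of it in EXO and 25.0% ± 4.42 in LPS. Isg15 stood at 1.09% ± 0.337 of Ubb, a polyubiquitin gene of repeated, near-identical units, in EXO and at 10.6% ± 1.87 in LPS. Herc6 stood at 34.8% ± 6.40 of Herc3, another small HERC ligase, in EXO and at 192% ± 65.0 in LPS, and Herc3 and Herc4 themselves were not called. In all 5 pairs, the last being Herc6 and Herc4, the member fell relative to its counterpart, by 1.40 to 3.19 on the log2 scale. Each pair had a two-sided exact permutation p of 0.0286, the smallest the design allows (adjusted p = 0.0286 over the 5 pairs). These p-values cannot serve as a test, since the pairs were picked with their values known and every member already separated the groups. Herc6 entered with both Herc3 and Herc4, and Usp18 had no counterpart.

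**Figure D4:**
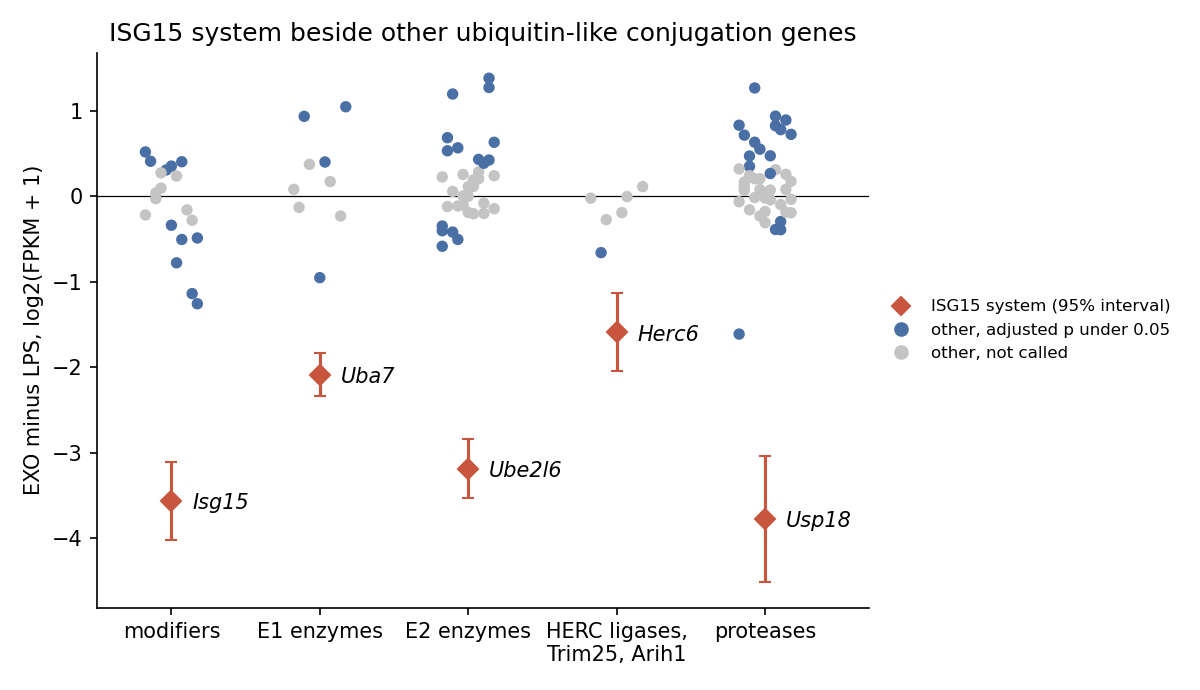
Difference of mean log2(FPKM + 1), EXO minus LPS, of each member, as a red diamond with its 95% confidence interval, beside the other modifiers, E1 enzymes, E2 enzymes, ligases and proteases tested, in blue where called and in grey where not. Each member lies below every other gene of its column, for example Usp18 at -3.77 against -1.61 for Tnfaip3.

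Set beside the wider lists, the conjugation machinery of other modifiers moved in both directions, as did the genes tested as a whole. Of all genes tested, 24.7% were called lower and 33.7% higher, the background for every list count given here and below. Of 19 other modifiers tested, 6 fell and 5 rose, leaving 8 without a call. Gabarap, an autophagy modifier, averaged 165 ± 19.8 FPKM in EXO and 398 ± 54.2 FPKM in LPS, while Sumo2 was higher in EXO at 301 ± 41.2 FPKM, against 209 ± 11.2 FPKM in LPS. The modifiers that rose numbered 2 under median-of-ratios rescaling and 3 without EXO replicate 1, LPS replicate 1 or LPS replicate 2. Of 9 other E1 genes, 3 rose, namely Uba1 and the SUMO E1 subunits Sae1 and Uba2. Sae1 averaged 68.2 ± 6.46 FPKM in EXO and 32.7 ± 5.20 FPKM in LPS. Of 34 other E2 genes, 5 fell and 10 rose, the number that fell being 2 without LPS replicate 3. Of 44 other proteases, 4 fell and 14 rose, and 2 fell where a mean FPKM of at least 5 was required. The E2 genes Ube2t and Ube2c were among those that rose, with log2 fold changes of 1.38 and 1.27. Tnfaip3 (A20), an inhibitor of NF-kB signalling, was the protease with the smallest p of those that fell.

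Genes reported to share the ligase or protease work of the pathway moved in both directions. Of 6 such ligases and HERC genes, Trim25, a ligase for ISG15 and ubiquitin, was called lower, at 20.02 ± 1.67 FPKM in EXO and 32.4 ± 4.79 FPKM in LPS (log2 fold change -0.66, limma adjusted p = 3.83e-04), and 5 were not called. That count was 3 under median-of-ratios rescaling and 2 by voom or without EXO replicate 2. Of 4 tested proteases reported to act on ISG15 besides Usp18, none fell, Usp14 and Usp21 rose, and Usp5 and Usp16 were not called. Usp14 averaged 74.0 ± 6.40 FPKM in EXO and 54.1 ± 6.88 FPKM in LPS. Usp2, another of these proteases, was too low to be tested, at 0.778 ± 0.228 FPKM in EXO (699 fragments) and 0.127 ± 0.0750 FPKM in LPS (122 fragments), and was called higher where no filter on low values was used.

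Of 5 tested partners of Usp18 and of secreted ISG15, Stat2, Itgb2 and Ifnar1 fell and Ifnar2 and Itgal were not called. The number that fell was 4 under median-of-ratios rescaling. Stat2, through which Usp18 reaches the receptor, fell the most, with a log2 fold change of -2.24 (limma adjusted p = 2.57e-08). Ifnar1, the other chain of the type I interferon receptor, averaged 14.5 ± 2.37 FPKM in EXO and 22.3 ± 0.767 FPKM in LPS (limma adjusted p = 7.87e-04), while Ifnar2, which Usp18 binds, averaged 13.3 ± 1.84 FPKM in EXO and 16.1 ± 0.736 FPKM in LPS and was not called (limma adjusted p = 0.0648). The receptor of extracellular ISG15 is the integrin LFA-1, whose chain Itgb2 fell (39.8 ± 6.15 FPKM in EXO and 78.1 ± 15.6 FPKM in LPS) and whose chain Itgal was not called (1.84 ± 0.522 FPKM in EXO and 1.53 ± 0.686 FPKM in LPS). Itgb2 is shared by other leukocyte integrins.

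Factors that drive Isg15 transcription were mostly lower. Of 9 tested, 6 fell and 1 rose, and the list's median was -1.15 on the log2 scale. Of the ISGF3 subunits, Stat2 averaged 1.86 ± 0.340 FPKM in EXO and 12.5 ± 1.96 FPKM in LPS, and Irf9 5.43 ± 1.43 FPKM in EXO and 13.3 ± 3.31 FPKM in LPS. Irf3, which can induce Isg15 without interferon, was the factor that rose, at 9.53 ± 0.749 FPKM in EXO and 7.09 ± 0.649 FPKM in LPS (log2 fold change 0.38, limma adjusted p = 0.00846). Irf7, named in the series title, had 17.9, 5.81, 5.28 and 16.6 FPKM in EXO replicates 1 to 4, against 123, 159, 139 and 151 FPKM in LPS replicates 1 to 4. EXO replicate 1 was its highest EXO library too, as it was for Isg15, Ube2l6 and Usp18. Of 9 interferon genes 2 were analysed, and Ifnb1 was listed at 0 in every EXO library and rested on 2 fragments in LPS, both in replicate 4.

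The 26 other interferon-stimulated genes tested all fell, their median being -2.44 on the log2 scale. Usp18, Isg15 and Ube2l6 lay below that median and Uba7 and Herc6 above it. Both the count and the median are partly set by the filter. Gbp2, Zbp1, Cmpk2, Ifit1, Ifit3 and Oas2 stayed below 1 FPKM in every EXO library, so they passed through LPS alone and could only fall. With no filter on low values, all 28 analysed were called lower. Gbp2, at 0.303 ± 0.220 FPKM in EXO and 37.2 ± 9.99 FPKM in LPS, fell by more than any member, and its level may include fragments of related Gbp genes. On the log2(FPKM + 1) scale, Oasl2, Ifit1, Rtp4, Rsad2 and Cmpk2 also fell by more than any member. Their log2 fold changes ran from -4.17 for Oasl2 to -3.80 for Cmpk2. Which genes are named here depends on that scale. Zbp1, at -3.41 on it, averaged 0.105 ± 0.0846 FPKM in EXO and 11.1 ± 3.29 FPKM in LPS. Proteins reported to carry or bind ISG15 were split. Of 24 tested, 9 fell and 6 rose. Among those that fell were the interferon-induced genes Rigi, Xaf1, Ifih1, Ifit1, Oas1a and Eif2ak2, and also Flna and Bnip3. Hdac6, which binds ISG15 conjugates, averaged 4.72 ± 0.598 FPKM in EXO and 2.60 ± 0.200 FPKM in LPS, and Pcna, a replication clamp, 451 ± 33.4 FPKM in EXO and 312 ± 25.8 FPKM in LPS. Tsg101, an ISG15 target of the vesicle sorting machinery, chosen after its values were seen, averaged 33.1 ± 2.28 FPKM in EXO and 36.9 ± 3.47 FPKM in LPS and was not called (limma adjusted p = 0.261).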

How the data were processed

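Per the labels' protocols, TRIzol RNA went into VAHTS Universal V6 libraries. HISAT2 and build GRCm39 (mm39) are named in the submitters' processing notes. The sources used here do not give the counting tool, strand setting or annotation. What the authors deposited is 1 table with no unit in its header, taken here as FPKM (scaled to gene length and library depth) from the steps of the values. These give whole fragments in all 17645 detected genes (within 0.002 of a whole number) and the fragments and gene lengths printed. The members and lists were chosen with earlier results of these data known.

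Genes with at least 1 FPKM in at least 4 libraries were transformed to log2(FPKM + 1) and compared, EXO minus LPS, two-sided, by limma 3.58.1 (R 4.3.3; trended, robust variances), a fit tested on simulated data. Exact permutation tests used scipy 1.17.1. Alternatives were another pseudocount, other filters, rescaling, voom on recovered fragments, plain variances, the replicate number as a block and left-out libraries. Named genes are taken from the members, Irf7, up to 4 genes of each list with the smallest p, up to 4 called genes that moved against the majority of their list, the 3 highest markers of each marker list and the 3 genes nearest in profile to each member. Any other gene named was picked with its values known, and a few genes of the lists are not reported here.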

Additional observations from a re-analysis of the deposited data

Results flagged for a closer look

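Among 77 genes examined in 2 groups of 4 libraries, 4 groups had a library far from the other 3, and chance alone flags about 1 in 20 groups. None of them was a member. Uba2, a SUMO E1 subunit, had 51.7 FPKM in LPS replicate 4, against 38.5 to 39.2 FPKM in the other LPS libraries. Ube2c had 133 FPKM in EXO replicate 2, against 177 to 183 FPKM in the other EXO libraries, and Ube2f, an E2 for NEDD8, had 47.2 FPKM in EXO replicate 2, against 51.5 to 52.3 FPKM. Cyria, the second nearest gene to Uba7, had 30.1 FPKM in LPS replicate 2, against 27.0 to 27.3 FPKM in the others.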

How the results depend on the processing

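All 5 members stayed lower in EXO and past the threshold under each alternative that tested them, 16 for Herc6 and 17 for each of the others, which a mean FPKM of at least 5 leaves out. Their log2 fold changes ranged from -3.80 to -3.36 for Isg15, -2.53 to -2.005 for Uba7, -3.32 to -3.09 for Ube2l6, -2.26 to -1.39 for Herc6 and -4.58 to -3.50 for Usp18, with adjusted p of at most 0.00187. The count of unequal pairs was 6 as reported and with median-of-ratios rescaling. It was 0 with a pseudocount of 0.1, with FPKM rescaled to a common sum, without EXO replicate 2 and LPS replicate 4 together, and, chosen after the data were seen, with no pseudocount. It was also 0 to 0 without any single library, where 4 against 3 allows no p below 0.0571. The replicate numbers were not taken as pairs, since same-numbered libraries deviated together with r of 0.0455, 0.170, -0.292 and -0.109. With the replicate number as a block 5592 genes were called, against 5732 without it, and all 5 members stayed called. Without any single library 4982 to 5967 genes were called. The calls in the lists numbered 114 as reported, 115 with the block and 96 to 118 without any single library. Median-of-ratios rescaling moved the median fold change of all genes by -0.064. Of the listed genes called, none turned its direction under the 3 other scalings, while genes including Nedd8, Urm1, Usp42, Senp2 and Eif4g3 lost their call in at least 1 of them. The lowest member value rests on 39 fragments.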

Other observations

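The deposited annotation was read for terms that name ISG15, a list added after the data were seen. Its GO terms name ISG15 for 6 genes, namely Isg15, Uba7, Ube2l6, Usp18 and the E2 genes Ube2e1 and Ube2e2, and not for Herc6. Ube2e2 fell, at 12.02 ± 1.95 FPKM in EXO and 18.5 ± 1.75 FPKM in LPS, and Ube2e1 averaged 86.3 ± 7.53 FPKM in EXO and 72.2 ± 5.29 FPKM in LPS and was not called (limma adjusted p = 0.0583), while without LPS replicate 4 it was called higher, alone or with EXO replicate 2 left out too.

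Its Reactome terms name ISG15 for 26 genes, 4 of them members. Of the 20 others tested, 5 fell and 7 rose, and the list's median was 0.11 on the log2 scale. These shares are near those of all genes tested, 24.7% lower and 33.7% higher. Of its 9 genes with Eif4 symbols, grouped after their values were seen, Eif4g3 fell, Eif4a1, Eif4a3, Eif4e and Eif4g1 rose, and Eif4a2, Eif4e2, Eif4e3 and Eif4g2 were not called. Eif4g3 averaged 5.67 ± 0.627 FPKM in EXO and 7.24 ± 0.543 FPKM in LPS (limma adjusted p = 0.0277). Eif4a3, a helicase of the exon junction complex, averaged 156 ± 15.3 FPKM in EXO and 80.2 ± 4.96 FPKM in LPS, Eif4a1, the initiation helicase, 925 ± 95.1 FPKM in EXO and 592 ± 35.3 FPKM in LPS, and Eif4g1, its scaffold, 88.1 ± 10.6 FPKM in EXO and 52.1 ± 12.1 FPKM in LPS. Mapk3, a MAP kinase, fell, at 47.0 ± 6.77 FPKM in EXO and 88.7 ± 19.5 FPKM in LPS.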
